A study of Mus musculus with 4 samples.

Results

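Phosphoinositide-specific phospholipase C (PLC) enzymes were examined at the mRNA level in mouse liver. Probes were taken from the arrays where the design accession of the probe matched one of 10 genes: *Plcb1*, *Plcb2*, *Plcb3* and *Plcb4* of the PLC-beta class, *Plcd1*, *Plcd3* and *Plcd4* of the PLC-delta class, *Plcg1* and *Plcg2* of the PLC-gamma class, and *Plce1*, the only PLC-epsilon gene. These 10 genes had 21 probes, out of 23462 genes with a matched probe and 56605 non-control probes in all.

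The livers came from male mice on a C57BL/6 background at 24 weeks of age, and each of 4 conditions was measured on 1 array. Mice of all 4 conditions carried floxed alleles of *Lpiat1*, the gene also called *Mboat7*, which encodes the acyltransferase that places arachidonic acid on lysophosphatidylinositol. Floxed mice without Cre (F/F) served as controls, and the liver knockout (LKO, *Alb-Cre*; *Lpiat1* F/F) also carried Cre under control of the albumin promoter, a hepatocyte promoter, so that other liver cells kept the gene. From 6 weeks of age mice of either genotype received standard chow or a high fat diet (HFD) for 18 weeks. Whether an array carried RNA of a single mouse or of several was not stated, so no difference below has a biological replicate and none was tested.

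PLC enzymes cut PIP2, a doubly phosphorylated form of phosphatidylinositol (PI) in the plasma membrane, into inositol trisphosphate (IP3) and diacylglycerol. IP3 opens calcium channels of the endoplasmic reticulum, and diacylglycerol activates protein kinase C and can be phosphorylated or acylated to triglyceride. In hepatocytes this pathway carries the calcium response to hormones such as vasopressin and noradrenaline. The study asked whether loss of LPIAT1 speeds the turnover of PI into diacylglycerol and triglyceride. From raised inositol monophosphate in knockout cells and LKO liver, it proposed higher PLC activity, without naming the enzyme. The arrays allow only the question whether mRNA of PLC genes differed between the conditions, and they do not measure PLC activity.

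All 4 arrays lay on 1 slide and were scanned together. Between 53.0% and 57.0% of 59305 non-control spots were well above background by the flag of the scanner software, and no spot was saturated. The 75th percentile signal, to which each array was scaled, ran from 213 to 296 in units of the scanner. The probe of the targeted gene *Mboat7* read 1102 (F/F) and 861 (LKO) on the chow arrays, and 1181 (F/F) and 1100 (LKO) on the HFD arrays. After scaling it was lower in LKO by 0.30 on the log2 scale on chow and by 0.27 on HFD, and whether this probe lies within the floxed exons is not known here. Markers of hepatocytes were well above background on every array (5 of 5 genes).

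A PLC level below is the log2 signal of a probe minus the log2 of the 75th percentile signal of its array, so a level of 0 is that percentile and a difference of 1 is 2-fold. Levels are compared only within a probe, since probes differ in their binding. Technical error was taken from replicate spots of the same probe within an array. The difference between a pair of such spots had a standard deviation of 0.34 for signals of 8 to 30, 0.19 for signals of 30 to 150 and 0.13 for signals of 150 to 1000. This error covers the array only and holds no difference between mice. Probes of the same gene differed from each other by more: over 4787 genes with several probes, the difference LKO minus F/F disagreed between probes with a standard deviation of 0.41 on chow and 0.54 on HFD, and the difference HFD minus chow with 0.75 in F/F and 0.86 in LKO.

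Of the 21 PLC probes, 14 were well above background on all 4 arrays, 1 probe of *Plcb2* on a single array, and 6 on none. By the brightest probe of each gene, 9 genes were measured on every array and *Plcd4* on none. The 3 *Plcd4* probes gave signals from 1.83 to 5.11, below the lowest signals called well above background (7.80 to 8.35 by array). *Plcd4* therefore has no difference in any comparison, and its mRNA was not detectable with these probes. Further probes that were never well above background were a pair for *Plcb2* and 1 for *Plcb4*.

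**Figure D1:**
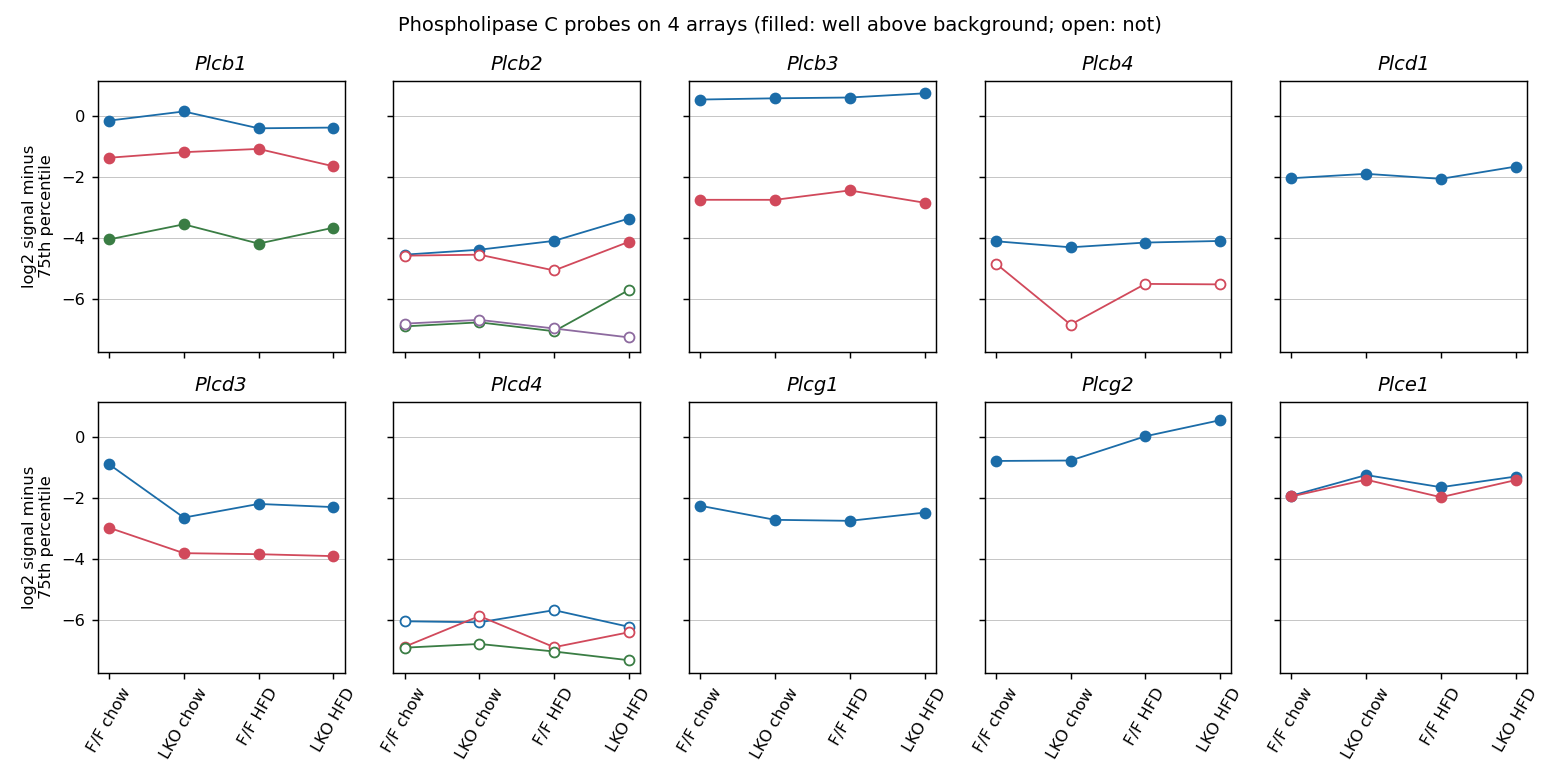
Level of each of the 21 PLC probes on the 4 arrays, as log2 signal minus the log2 75th percentile signal of the array (vertical axis) against condition (horizontal axis). Colours are different probes of a gene, lines only join points of 1 probe, filled points were well above background and open points were not. *Plcg2* is higher on both HFD arrays (0.01 and 0.54) than on both chow arrays (-0.79 and -0.78), and both *Plcd3* probes are highest on the F/F chow array.

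Between genotypes, most PLC genes differed little on chow. *Plcd3* was 3.36-fold lower in LKO, and it was the only one of 9 measured members to pass 2-fold. No member was 2-fold higher. Over all genes with a value on chow, 1.11% were at least 2-fold higher in LKO and 1.03% at least 2-fold lower. On HFD no member passed 2-fold in either direction, against 2.36% of all genes higher and 1.91% lower, while 8 of 9 members lay above 0 with a median difference of 0.27 and 45.9% of all genes lay above 0 with a median of -0.03. On chow 6 of 9 members lay above 0, with a median of 0.04 beside 0.00 for all genes.

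Between diets, *Plcd3* was 2.46-fold lower on HFD in F/F, where 2.94% of all genes were at least 2-fold lower, and no member was 2-fold higher, where 5.21% of all genes were. In LKO, *Plcg2* was 2.50-fold and *Plcb2* 2.03-fold higher on HFD and no member was 2-fold lower, with 8.12% of all genes at least 2-fold higher and 4.07% lower. The member medians were -0.02 in F/F and 0.24 in LKO, with -0.02 and -0.07 for all genes. Each of the 4 arrays enters 2 of these 4 comparisons, so the comparisons are not independent of each other.

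**Figure D2:**
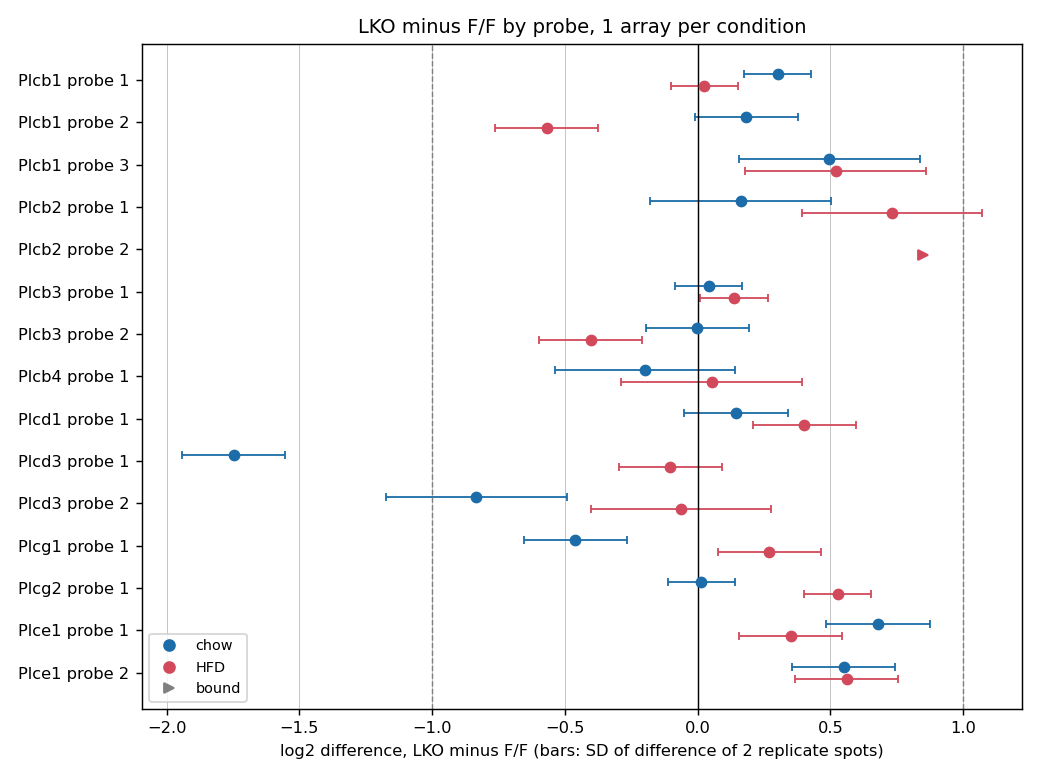
Log2 difference LKO minus F/F (horizontal axis) of each PLC probe with a value, on chow and on HFD. Bars span 1 technical standard deviation of the difference of replicate spots at that brightness on either side of the point, arrowheads are lower bounds and dashed lines mark 2-fold. *Plcd3* probe 1 on chow (-1.75) is the only point past a dashed line.

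**Figure D3:**
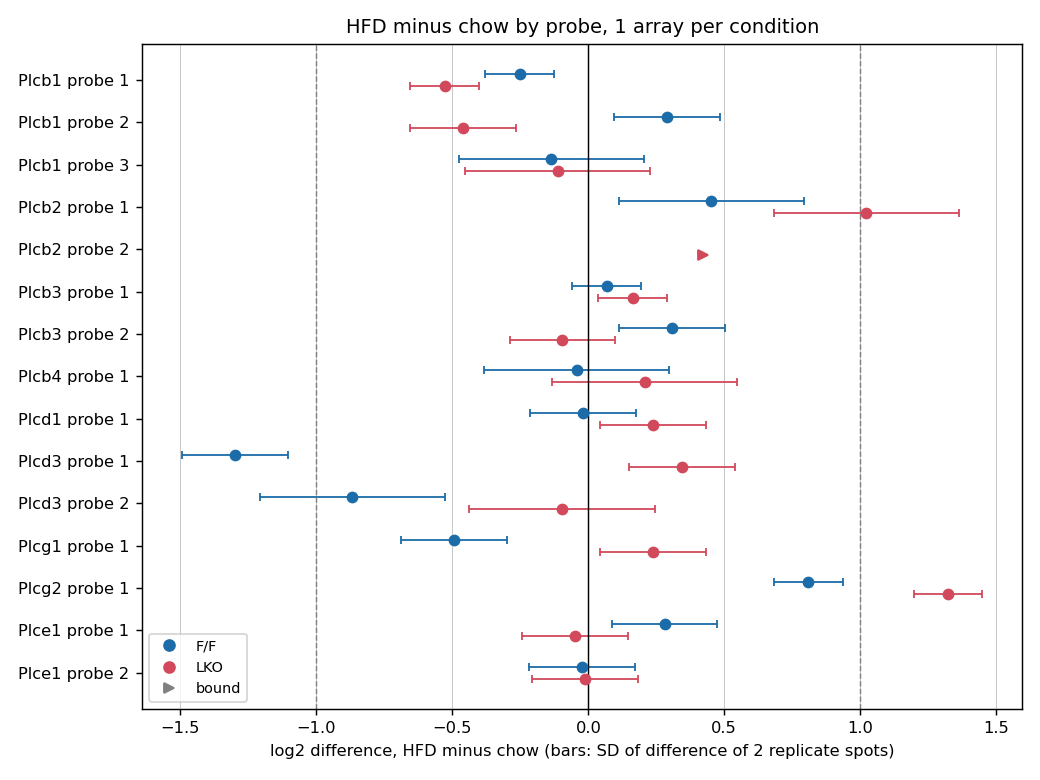
Log2 difference HFD minus chow (horizontal axis) of each PLC probe with a value, in F/F and in LKO, with bars, arrowheads and dashed lines as in the plot of genotype differences. *Plcg2* (1.32) and *Plcb2* probe 1 (1.02) lie past 2-fold in LKO, and *Plcd3* probe 1 (-1.30) lies past 2-fold the other way in F/F.

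PLC-beta enzymes are switched on by G proteins of the Gq class, and by beta-gamma subunits, downstream of hormone receptors. *Plcb3* encodes a widely expressed PLC-beta. Its brighter probe had levels of 0.53 (F/F) and 0.57 (LKO) on chow and 0.60 (F/F) and 0.74 (LKO) on HFD, from signals of 321, 318, 399 and 493 in the same order. The 4 arrays were thus close together, with genotype differences of 0.04 on chow and 0.14 on HFD and diet differences of 0.07 in F/F and 0.16 in LKO, beside a technical error of 0.13. Its dimmer probe gave genotype differences of -0.00 on chow and -0.40 on HFD, so on HFD the probes took opposite signs.

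*Plcb1* encodes another Gq-regulated PLC-beta, with a nuclear form. Probe 1 had levels of -0.16 for F/F and 0.14 for LKO on chow, then -0.41 for F/F and -0.39 for LKO on HFD, the order used for all lists of 4 values below. On this probe both HFD arrays were below both chow arrays, by 0.25 in F/F and 0.53 in LKO. Probe 2 had levels of -1.37, -1.19, -1.09 and -1.65, and probe 3, the dimmest, had levels of -4.05, -3.56, -4.19 and -3.67. All 3 probes were higher in LKO on chow (0.30, 0.18 and 0.50), whereas on HFD they spread from -0.57 on probe 2 to 0.52 on probe 3. The diet difference in F/F was -0.25, 0.29 and -0.14 for probes 1, 2 and 3, and in LKO it was below 0 on all 3 probes (-0.53, -0.46 and -0.11).

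*Plcb2* encodes the PLC-beta found mainly in blood cells. The single probe that was measured on every array was dim, with signals of 9.45, 10.2, 15.3 and 28.6 and levels of -4.55, -4.39, -4.10 and -3.37. The LKO HFD array was highest and the chow arrays were lowest. The difference LKO minus F/F was 0.16 on chow and 0.73 on HFD, and the difference HFD minus chow was 0.45 in F/F and 1.02 in LKO, each with a technical error of 0.34. A second probe was clear of background in LKO HFD alone, which gave bounds of at least 0.85 (log2) higher than F/F HFD and at least 0.42 higher than LKO chow. With normexp background correction, which pulls dim signals together, the diet difference of the first probe was 0.07 in LKO and -0.05 in F/F, so *Plcb2* did not reach 2-fold with it.

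*Plcb4*, a PLC-beta best known from neurons and the retina, was also dim. Its measured probe had signals of 12.8, 10.7, 14.8 and 17.2 and levels of -4.11, -4.31, -4.16 and -4.10. The 4 differences lay between -0.20 and 0.21, within the technical error of 0.34 at this brightness. Over the PLC-beta class, no gene other than *Plcb2* reached a 2-fold difference in any of the 4 comparisons.

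PLC-delta enzymes respond to calcium itself and bind PIP2 through a PH domain. *Plcd1* had levels of -2.05, -1.90, -2.07 and -1.66, from signals of 53.7, 57.1, 62.8 and 93.3. The LKO HFD array was the highest of the 4, by 0.40 over F/F HFD and by 0.24 over LKO chow, against a technical error of 0.19. The remaining differences were 0.14 between genotypes on chow and -0.02 between diets in F/F.

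*Plcd3*, a second PLC-delta, gave the widest spread over the 4 arrays of any measured member. Probe 1 had signals of 118, 33.9, 57.1 and 59.7, and levels of -0.90, -2.65, -2.20 and -2.31. Probe 2 had signals of 28.0, 15.1, 18.2 and 19.6, and levels of -2.98, -3.82, -3.85 and -3.92. On either probe the F/F chow array stood alone above the other 3 arrays. The difference LKO minus F/F on chow was -1.75 on probe 1 (technical error 0.19) and -0.83 on probe 2 (technical error 0.34), and on HFD it was -0.10 and -0.06. The difference HFD minus chow in F/F was -1.30 and -0.87, and in LKO it was 0.34 and -0.10.

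Only 45 of 14981 genes (0.300%) were as far down as *Plcd3* in LKO on chow, and 247 of 15358 genes (1.61%) were as far down on HFD in F/F. Both comparisons use the F/F chow array, and the values on this array were not replicated. With normexp background correction probe 1 gave -0.96 on chow and -0.80 between diets in F/F, so both differences kept their sign and were under 2-fold, and probe 2 gave -0.15 and -0.29. Between diets in LKO, probe 1 then gave -0.0035 in place of 0.34. Among 13980 other genes measured on all arrays, those with the profile nearest to *Plcd3* probe 1, by root mean square distance of log2 levels centred on each gene's own mean over the 4 arrays, were *Fam228b* (0.17), *Pknox2* (0.18), *Col17a1* (0.22), *Kdm3b* (0.25) and *Zfpm2* (0.25). Within a distance of 0.2 there were 2 genes.

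PLC-gamma enzymes dock on phosphorylated tyrosines through SH2 domains. *Plcg1*, the broadly expressed form that follows growth factor receptors, had levels of -2.26, -2.73, -2.76 and -2.49, from signals of 46.2, 32.3, 38.9 and 52.7. F/F chow was highest and the other control array, F/F HFD, was lowest. LKO was lower than F/F on chow by a difference of -0.46 and higher on HFD by 0.27, and HFD was lower than chow in F/F (-0.49) and higher in LKO (0.24), against a technical error of 0.19. Under normexp correction these 4 differences were -0.10, 0.12, -0.29 and -0.08.

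*Plcg2* encodes the form of immune cells, which acts after the kinases Syk and Btk and the adaptor Blnk in B cells and myeloid cells. Its signals were 128, 124, 266 and 431, and its levels were -0.79, -0.78, 0.01 and 0.54. The chow arrays were alike (difference 0.01), both HFD arrays were above them, and LKO HFD was the highest. HFD was above chow by 0.81 in F/F and by 1.32 in LKO, and LKO was above F/F on HFD by 0.53, against a technical error of 0.13. In LKO, 748 of 15242 genes (4.91%) were as far up on HFD as *Plcg2*, and on HFD 1452 of 15528 genes (9.35%) were as far up in LKO. With normexp background correction the values were 0.70, 1.02 and 0.37, so the 2-fold difference in LKO held.

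Immune kinases and adaptors of the list upstream of PLC-gamma had the following levels. *Syk* had levels of -0.70, -0.81, -0.05 and 0.65, *Blnk* had -0.16, 0.34, 1.39 and 2.69, *Btk* had -2.44, -2.37, -1.77 and -1.40, and *Lcp2*, the adaptor SLP-76, had -1.61, -1.63, -1.01 and -0.52. Each of these genes was above its chow levels on both HFD arrays and highest in LKO HFD. The T cell kinase *Zap70* (3.73, 4.28, 4.15 and 3.84) and the T cell adaptor *Lat* (-4.22, -4.79, -4.47 and -3.69, not well above background in LKO chow) did not have this order. *Zap70* read 2945 to 4677, beside 337 to 396 for *Cd3e*, the brightest T cell marker. Whether the *Zap70* probe follows T cells is not known here. *Btk*, *Lcp2*, *Zap70* and *Lat* were named after their values were seen. *Blnk* was higher in LKO than in F/F on HFD by 1.30, and *Syk* by 0.70. The profiles nearest to *Plcg2*, a comparison made after its values were seen, were those of *Pkm* (0.0193), *Bco1* (0.0199), *Plp2* (0.0238), *Ehd4* (0.0268) and *Cmtm7* (0.0318). A distance under 0.2 from *Plcg2* was shared by 580 of 13980 genes.

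Marker lists of several cell types differed over the 4 arrays beside *Plcg2* and *Plcb2*. The summed level of 8 macrophage and Kupffer cell markers, relative to the 75th percentile, was 115, 108, 149 and 187, and all 8 were well above background on every array. Such a sum weighs bright genes most, and the brightest here was *Cd5l* (levels of 5.27, 5.37, 5.97 and 6.65). On HFD, 6 of 8 markers were above 0 in LKO against F/F, with a median of 0.36. Within this list *Cd68* was higher in LKO than in F/F on HFD by 0.84, and *Adgre1* and *Csf1r* by 0.36 each. Markers of Kupffer cells took both signs. *Marco* (-1.64) and *Timd4* (-0.95) were lower, whereas *Clec4f* (0.31), *Vsig4* (0.69) and *Cd5l* (0.68) were higher. The summed level of 4 B cell markers was 0.451, 0.429, 0.676 and 0.837, with 3 of 4 well above background on every array and *Cd79a* on none. Sums for stellate cells (75.7, 79.3, 99.2 and 115) and cholangiocytes (4.84, 4.43, 13.3 and 15.2) were likewise higher on both HFD arrays and highest in LKO HFD. The sum for exocrine pancreas, a tissue outside the liver, was also highest there (20.4, 12.2, 10.4 and 41.5). All 5 of its markers were at least 2-fold higher in LKO HFD than in F/F HFD, with a median of 1.94. They were also at least 2-fold higher than in LKO chow, with a median of 2.61. Of all genes, 2.36% and 8.12% were at least 2-fold higher in these comparisons. What this signal means for the PLC values of the LKO HFD array was not tested. The brightest cholangiocyte marker, *Spp1* (levels of 1.92, 1.90, 3.65 and 3.81), weighed most in its sum. Between diets, 3 of 5 cholangiocyte markers were above 0 in F/F and 4 of 5 in LKO, whereas *Sox9* was lower on HFD (-1.93 and -0.26). The sum for neutrophils, which are blood cells too, was lowest in LKO HFD (72.4, 65.7, 65.3 and 53.1). *Csf3r* (levels of 5.70, 5.79, 5.45 and 5.32) weighed most in it. *Ly6g* was also lowest in LKO HFD, but *S100a8* (2.11, 1.10, 2.14 and 1.46) and *S100a9* (3.94, 2.95, 4.03 and 3.28) were lowest in LKO chow. On HFD all 4 neutrophil markers were below 0 in LKO against F/F, with a median of -0.43. The sum for T cells (2.26, 2.02, 1.74 and 2.28) was lowest in F/F HFD and highest, by little over F/F chow, in LKO HFD. On HFD all 4 T cell markers were above 0 in LKO against F/F, with a median of 0.86, *Cd8a* as a bound. The brightest of them, *Cd3e*, differed least (0.07). In whole liver, more cells of a type and more mRNA per cell cannot be told apart, and the part of cell numbers in the *Plcg2* and *Plcb2* differences was not tested.

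**Figure D4:**
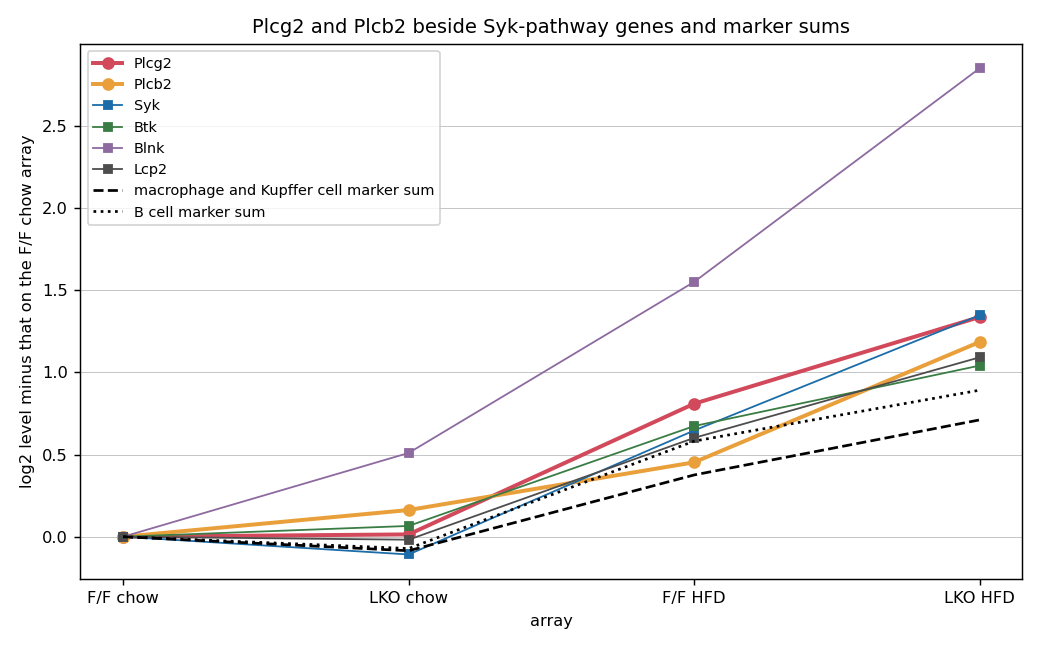
Log2 level minus that on the F/F chow array (vertical axis) for *Plcg2*, *Plcb2* (probe 1) and 4 genes of the Syk pathway, with the summed macrophage and B cell markers as dashed and dotted lines, on the 4 arrays (horizontal axis). All 8 lines are highest in LKO HFD, and that of *Blnk* runs above the others on both HFD arrays. Each marker sum weighs its brightest genes most, and *Cd5l* is the brightest of the macrophage list.

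The sequences upstream of the start of *Plcg2* and *Plcb2* are shown because these were the members that passed 2-fold between diets in LKO. Both run 5′ to 3′ on the strand of the gene over 250 bases that end at the base before the start, from RefSeq on GRCm38.p6. The *Plcg2* promoter lies at chr8:117498025-117498274 on the + strand and the *Plcb2* promoter at chr2:118728439-118728688 on the - strand. Capitals mark GAGGAA, the purine-rich core bound by PU.1, a transcription factor of myeloid and B cells, searched on both strands.
Plcg2: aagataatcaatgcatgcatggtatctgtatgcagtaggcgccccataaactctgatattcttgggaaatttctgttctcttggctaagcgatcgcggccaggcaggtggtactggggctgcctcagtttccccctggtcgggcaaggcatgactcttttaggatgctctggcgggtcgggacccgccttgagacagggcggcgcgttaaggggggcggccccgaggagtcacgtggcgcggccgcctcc
Plcb2: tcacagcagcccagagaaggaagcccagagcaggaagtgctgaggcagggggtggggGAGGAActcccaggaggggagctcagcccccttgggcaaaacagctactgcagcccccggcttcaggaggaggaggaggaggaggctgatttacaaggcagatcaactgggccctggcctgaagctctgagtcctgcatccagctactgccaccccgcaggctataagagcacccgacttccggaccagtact
The motif occurred once before *Plcb2*, at position -193, and not in this stretch of *Plcg2*. It was found in 5 of 13 promoters of the 10 members, with several starts for some genes, and in 7639 of 32851 promoters of all genes (23.3%). A match is a run of letters and says nothing on binding in these livers.

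PLC-epsilon, encoded by *Plce1*, is driven by small GTPases such as Ras and also acts on Rap. Probe 1 had levels of -1.94, -1.26, -1.66 and -1.31, from signals of 58.0, 89.3, 83.6 and 120. Probe 2 had levels of -1.96, -1.41, -1.98 and -1.42, from signals of 57.0, 80.3, 66.6 and 110. Both LKO arrays were above both F/F arrays on either probe, which held for no other gene with several probes measured on every array. The genotype difference was 0.68 and 0.55 on chow and 0.35 and 0.56 on HFD for probes 1 and 2, against a technical error of 0.19. None of these values reached 2-fold, and 396 of 14981 genes (2.64%) were as far up in LKO on chow as probe 1. The diet difference was 0.28 and -0.02 in F/F, and in LKO it was -0.05 and -0.01. With normexp background correction the genotype difference was 0.41 and 0.25 on chow and 0.31 and 0.39 on HFD.

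Among the genes with at least 2 probes measured in a comparison, the probes had the same sign for 3 of 4 genes between genotypes on chow, 3 of 5 on HFD, 2 of 4 between diets in F/F and 3 of 5 in LKO. Of the 4 genes with several probes measured on every array, *Plcd3* (lower in LKO) and *Plce1* (higher in LKO) kept 1 sign between genotypes on all probes and both diets.

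The genotype difference on HFD minus that on chow was above 0 for 7 of 9 members, with a median of 0.26, and over 13981 genes the median was -0.05. The value was 1.64 for *Plcd3* probe 1 and 0.77 for its probe 2, and 86 genes (0.615%) had a value at least as high as probe 1. It was 0.73 for *Plcg1* (4.68% of genes at least as high), 0.57 for *Plcb2* (7.59%) and 0.51 for *Plcg2* (8.82%). For *Plce1* it was -0.33 on probe 1 and 0.01 on probe 2, and for *Plcb1* probe 1 it was -0.28. After normexp correction the value was 0.80 for *Plcd3* probe 1, 0.22 for *Plcg1*, 0.12 for *Plcb2* and 0.32 for *Plcg2*, so each kept its sign and was smaller by over 1.5 times. None of these differences of differences was tested.

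Outside the 10 genes, 8 genes of related or PLC-like proteins were followed. *Plch1* and the sperm form *Plcz1* were not well above background on any array. The brighter probe of *Plch2*, a PLC-eta, was well above background on the LKO chow array only, with a signal of 22.8. There it was at least 3.04-fold higher than in F/F chow and at least 4.05-fold higher than in LKO HFD. A second *Plch2* probe was not well above background on any array, with a signal of 2.07 in LKO chow. For *Plcl1*, a PLC-like protein without catalytic activity, LKO exceeded F/F on chow at least 2.43-fold. *Plcl2*, the second protein of that kind, had levels of 1.83, 1.68, 1.91 and 2.11. *Plcxd3* was 2.16-fold higher on HFD in LKO, where 8.12% of all genes were at least 2-fold higher. Its signal in LKO chow was 8.64, near the lowest signal called well above background on that array (8.09). A second *Plcxd3* probe was not well above background on any array. *Plcxd2* was lower on HFD in both genotypes (-0.81 in F/F and -0.85 in LKO).

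Upstream of PLC-beta, 11 Gq-class G protein subunits and regulators and 18 receptors, most of them mainly Gq-coupled, were listed. The alpha subunits *Gnaq* (0.58, 0.42, 0.42 and 0.58) and *Gna11* (1.89 to 2.01) varied little over the 4 arrays. Larger diet differences lay in the regulators, which speed the shut-off of Gq: *Rgs2* was higher on HFD by 1.52 in F/F and 1.66 in LKO, *Rgs16* by 1.58 in F/F, and *Rgs3* was lower with differences of -2.55 and -1.45. No gene of the regulator list passed 2-fold between genotypes. Of the receptors, the vasopressin receptor *Avpr1a* had levels of 2.84, 2.19, 0.86 and 1.64, which is 3.95-fold lower on HFD in F/F. The UDP receptor *P2ry6* was higher on HFD by 1.08 in F/F and 1.66 in LKO. The prostaglandin receptor *Ptgfr* was at least 2.92-fold higher on HFD in F/F and at least 3.13-fold in LKO. *Ptger3*, also a prostaglandin receptor but not mainly Gq-coupled, was clear of background only in F/F chow. It was at least 4.15-fold higher there than in LKO chow and at least 4.96-fold higher than in F/F HFD. *Plcd3* and *Ptger3* were thus both highest on the F/F chow array.

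Upstream of PLC-gamma, 14 tyrosine kinase receptors and adaptors had a value in every comparison. On HFD, 10 of 14 were above 0 in LKO against F/F with a median of 0.42, beside -0.03 for all genes, and *Blnk* was the only one past 2-fold. Between diets in LKO, *Blnk* (2.34), *Syk* (1.46), *Pdgfrb* (1.41), *Lcp2* (1.11) and *Lat* (at least 1.03) were higher on HFD, and *Egfr* was lower (-1.23). In F/F, *Blnk* was higher (1.55) and *Egfr* lower (-1.31). *Egfr*, the receptor for epidermal growth factor in hepatocytes, therefore differed between diets in the opposite direction to *Syk* and *Blnk*. The 11 small GTPases and exchange factors that feed PLC-epsilon held no gene past 2-fold in any comparison, and their medians ran from 0.03 to 0.19. Of all genes, 1.03% to 8.12% passed 2-fold, by comparison and direction.

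Downstream of PLC, none of 11 IP3 receptor and IP3 metabolism genes passed 2-fold. *Itpr1*, an IP3 receptor, was lower on HFD with differences of -0.58 (F/F) and -0.94 (LKO), and *Itpr2*, the main form of hepatocytes, with -0.54 and -0.49. Of 9 protein kinase C and protein kinase D genes, 8 had a value, and 7 of 8 were above 0 between diets in both genotypes, with medians of 0.26 (F/F) and 0.69 (LKO), while 47.8% and 43.5% of all genes were above 0. *Prkca* (1.23) and *Prkcb* (1.03) were at least 2-fold higher on HFD in LKO and *Prkcq* (1.10) in F/F, beside 8.12% and 5.21% of all genes. Between genotypes none of the 8 with a value passed 2-fold. Diacylglycerol kinases and acyltransferases take diacylglycerol on to phosphatidic acid or triglyceride. Of 12 such genes, 8 had a value in each comparison, and of 11 genes of PI synthesis and PIP2 supply, 9 or 10 did. None of those with a value passed 2-fold in any of the 4 comparisons. The share of all genes past 2-fold ran from 1.03% to 8.12% by comparison and direction, so lists this short can hold none. *Dgat2*, an acyltransferase that forms triglyceride, had levels of 7.47, 7.51, 7.53 and 6.98.

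**Figure D5:**
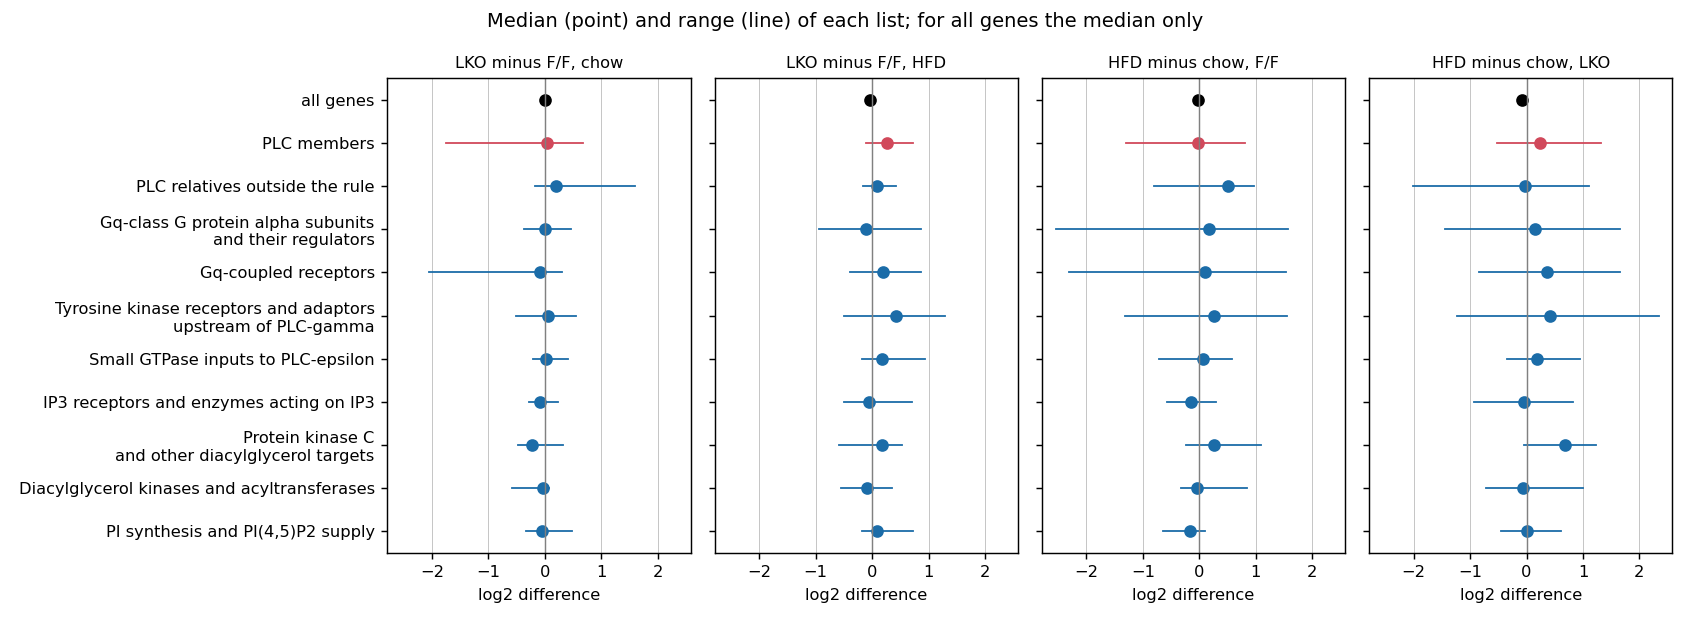
Median (point) and range (line) of the log2 differences (horizontal axis) of each list of genes in the 4 comparisons, 1 panel per comparison, with the median of all genes in black and of the 10 PLC members in red. Bounds enter at their bound. The PLC members have a median of 0.27 between genotypes on HFD and 0.24 between diets in LKO, and their range reaches -1.75 between genotypes on chow.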

How the data were processed

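Liver RNA of 4 conditions was labelled with Cy3 and hybridised to one-colour Agilent mouse arrays, 1 array per condition. The authors deposited scanner tables made with Agilent Feature Extraction 12.0.3.1, which hold background-subtracted signal intensity per spot, and a table of values. Tested against the scanner tables, the deposited table was the same signal intensity multiplied by 1 factor per array (2.60 and 2.63 for F/F and LKO on chow, 2.41 and 2.10 on HFD), on a linear scale with no centring; how the factors were set is not given in the sources used here.

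From the scanner tables, control spots were left out and spots of a probe were averaged. Outlier spots were dropped from this mean unless all spots of a probe were outliers. Each PLC probe had a single spot, so none was dropped for them. Log2 intensity minus the log2 of the 75th percentile over all non-control spots of each array was taken. Probes were named through RefSeq accessions (33767 of 56605 matched). The brightest probe stood for a gene in counts. A probe not well above background on 1 side of a difference gave a bound, set at the lowest signal well above background or its own signal if higher, and on both sides no value. Differences of at least 2-fold were counted, and no test was made, since 1 array per condition gives no spread between mice. The small number of arrays limits the precision. Named genes were all members, list genes past 2-fold between genotypes, and up to 2 raised and 2 lowered per list and diet comparison; *Plcl2*, *Plcxd2*, *Gnaq*, *Gna11*, *Itpr1*, *Itpr2*, *Dgat2* and the list genes past 2-fold beyond these were named after their values were seen. The members and gene lists were chosen with earlier results of these data known.

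Alternatives were quantile normalization, the deposited table, other filters and thresholds, and normexp correction with an offset of 50 (limma 3.58.1, run in R 4.3.3). Computation used Python 3.11.15, pandas 2.3.3 and numpy 2.4.6, was checked on simulated data, and matplotlib 3.10.9 drew the plots. The labels and the methods name different RNA kits. Marker lists also covered sinusoidal endothelium (summed levels 39.7, 41.2, 47.6 and 47.6), red cells (107, 105, 199 and 101) and hepatocytes (2480, 2506, 2039 and 1711).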

Additional observations from a re-analysis of the deposited data

Results flagged for a closer look

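Some probes differed in opposite directions under the same contrast, each by more than the technical error of replicate spots, before normexp background correction. *Plcd3* probe 1 was lower on HFD in F/F (-1.30) and higher in LKO (0.34), a difference of 1.64. Its probe 2 was below 0 in both genotypes (-0.87 and -0.10), and with normexp background correction the LKO value of probe 1 was -0.0035, so the opposite direction in LKO rests on probe 1 without that correction. *Plcg1* was lower in LKO on chow (-0.46) and higher on HFD (0.27), a difference of 0.73, which is also the difference between its diet values (-0.49 in F/F and 0.24 in LKO). With normexp background correction its genotype values were -0.10 and 0.12, its diet values were below 0 in both genotypes (-0.29 and -0.08), and the difference was 0.22. *Plcb1* probe 2 was higher on HFD in F/F (0.29) and lower in LKO (-0.46), a difference of -0.75, whereas its probes 1 and 3 were below 0 in both genotypes. With 1 array per condition, none of these differences between groups was tested.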

How the results depend on the processing

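No paired analysis was possible because each condition had 1 array, and for the same reason no replicate could be left out. Normexp background correction took the member past 2-fold lower on chow from 1 to 0, that between diets in F/F from 1 to 0, and the members past 2-fold higher between diets in LKO from 2 to 1, and moved the member median between genotypes on HFD to 0.12 and between diets in LKO to -0.0035. With normexp, 0.128% of all genes were at least 2-fold lower in LKO on chow, against 1.03% without it. Between diets, 0.979% were lower in F/F (2.94% without it) and 2.92% higher in LKO (8.12% without it). The all-gene medians with it were -0.04 between genotypes on HFD and -0.09 between diets in LKO. Of 56 single-probe differences, 22 moved by more than the technical error under normexp and 8 changed sign, 2 of them from a size over 0.3, and of the 9 genotype differences on HFD minus those on chow, 3 moved and that of *Plcb4* changed sign. Averaging the probes of each gene gave 2 members past 2-fold lower on chow, the second being *Plcb4*, whose other probe was never above background, and 1 past 2-fold higher between diets in LKO. With averaged probes, 1.03% and 7.55% of all genes passed 2-fold in the same directions. A 4-fold threshold gave 0 members in each of these member counts, and a 1.5-fold threshold gave 1 member higher on chow, 1 higher on HFD between genotypes and 1 higher between diets in F/F. The shares of all genes at these thresholds are not given here, so these counts have no background beside them. In the deposited table the member median was 0.11 between diets in F/F and 0.38 in LKO, where the median of all genes moved from -0.02 to 0.11 and from -0.07 to 0.07. Without a filter it moved to -0.12 and -0.21. Counting every probe, an alternative chosen after seeing the data, left the 8 counts past 2-fold as they were. Low signal limits *Plcb2*, *Plcb4* and *Plcd4* most.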
